A study of Drosophila melanogaster with 8 samples.

Results

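GILT3, CG8745 and Lime are 3 Drosophila genes that were chosen because their signal was much higher at both embryonic stages when the transcription factor DIMMED was expressed in all neurons. They are 3 of the 6866 genes that had at least 1 tested probe set naming that gene alone, and each is represented by 1 probe set. They were chosen by the measured differences between elav-dimm and control embryos at each stage, so those differences are given below as a description, with no test. GILT1 and GILT2, the paralogs of GILT3, were named by family and not by their values, and could be tested.

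Whole dechorionated embryos were profiled on 8 Affymetrix Drosophila Genome 2.0 arrays, in 4 groups of 2 arrays. The elav-dimm embryos had the genotype w;UAS-dimm2A3/+;elav-GAL4/+, with a myc-tagged dimm transgene driven by the pan-neuronal line elav-GAL4, and were taken at stage 14 and at stage 16. The control embryos were w;;elav-GAL4, the parental driver line, at the same stages. All groups thus carry elav-GAL4 and the w background, while GAL4 dose and paternal chromosomes differ between the genotypes beside the transgene. The transgene was 1 line (2A3), adults were reared at 25 °C and eggs were collected at 18 °C. The collection window was 22 to 26 h for stage 14 by the sample labels (starting at 24 h in the text on the series) and 28 to 32 h for stage 16.

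The 3 genes belong to different branches of biology. GILT enzymes are thiol reductases related to the mammalian interferon-inducible lysosomal reductase, which opens disulfide bonds of proteins taken into the endosomal and lysosomal system. CG8745 encodes a predicted pyridoxal-phosphate enzyme of the aminotransferase class, related to the mammalian ethanolamine-phosphate phospho-lyase of phospholipid turnover. Lime encodes a zinc finger transcription factor that was named for linking immunity and metabolism, from work on blood cells, trehalose and glycogen in fly larvae. DIMMED itself is a basic helix-loop-helix factor of peptidergic neuroendocrine cells, where it promotes the secretory state.

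Signals are log2 GCRMA values per probe set, in which a step of 1 is a doubling. The lowest value was 2.182 on the stage 14 arrays and 2.186 on the stage 16 arrays, and values under 4 were treated as dim. Between 7574 and 7651 probe sets lay above 4 on each array, and 8258 probe sets did so on at least 2 arrays and were tested. The dimm probe set, the check of the labels, read 7.59 and 7.66 in elav-dimm embryos at stage 14, against 2.86 and 2.80 in control embryos. At stage 16 it read 5.51 and 8.26 in elav-dimm embryos, against 2.53 and 2.68 in control embryos, so all elav-dimm arrays lay above all control arrays. The replicate 1 arrays of stage 16, in both genotypes, had a larger gap between the 3′ and 5′ signals of the eIF-4a control transcript (6.22 and 7.10) than the other 6 arrays (2.56 to 3.68). The labels do not say that the arrays of a group came from separate embryo collections, and p-values are set against the array-to-array spread, part of which could be technical. In RNA of whole embryos, more cells making a transcript and more of it per cell cannot be told apart.

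GILT3 was dim in control embryos and bright in elav-dimm embryos at both stages. At stage 14 it read 9.30 and 9.71 in elav-dimm embryos, against 3.77 and 3.59 in control embryos. At stage 16 GILT3 read 8.78 and 8.66 in elav-dimm embryos, against 2.98 and 3.01 in control embryos. All 4 control arrays lay under 4 and all 4 elav-dimm arrays lay more than 4 log2 units above them. The fitted difference was 5.82 ± 0.16 at stage 14 and 5.73 ± 0.16 at stage 16 (log2, SE, 2 arrays against 2). Because the control signal was dim, the size depends on how low values are handled. After every value under 4 was set to 4, the difference was 5.50 at stage 14 and 4.72 at stage 16.

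CG8745 was already clearly detected in control embryos, and its differences do not rest on dim values. At stage 14 it read 9.27 and 9.38 in elav-dimm embryos, against 6.43 and 6.47 in control embryos, a 7.32-fold difference (log2 2.87 ± 0.22, SE). At stage 16 CG8745 read 9.21 and 9.03 in elav-dimm embryos, against 7.12 and 6.48 in control embryos, a 4.98-fold difference (log2 2.32 ± 0.22, SE). The groups did not overlap at either stage. The widest gap between arrays of 1 group was that of the stage 16 controls, at 0.64, and the stage 16 difference was 2.08 between the replicate 1 arrays and 2.55 between the replicate 2 arrays.

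Lime showed a different course, because its signal was lower at stage 16 in both genotypes. At stage 14 it read 9.62 and 9.64 in elav-dimm embryos, against 7.43 and 7.78 in control embryos, a 4.06-fold difference (log2 2.02 ± 0.23, SE). At stage 16 Lime read 6.15 and 5.95 in elav-dimm embryos, against 3.30 and 2.71 in control embryos, a log2 difference of 3.05 ± 0.23 (SE). The stage 16 elav-dimm arrays thus lay below the stage 14 control arrays, while within each stage the genotypes did not overlap. Both stage 16 control arrays were dim. With values under 4 set to 4, the differences were 2.02 at stage 14 and 2.05 at stage 16, so the larger difference at stage 16 rested on control values under 4.

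**Figure D1:**
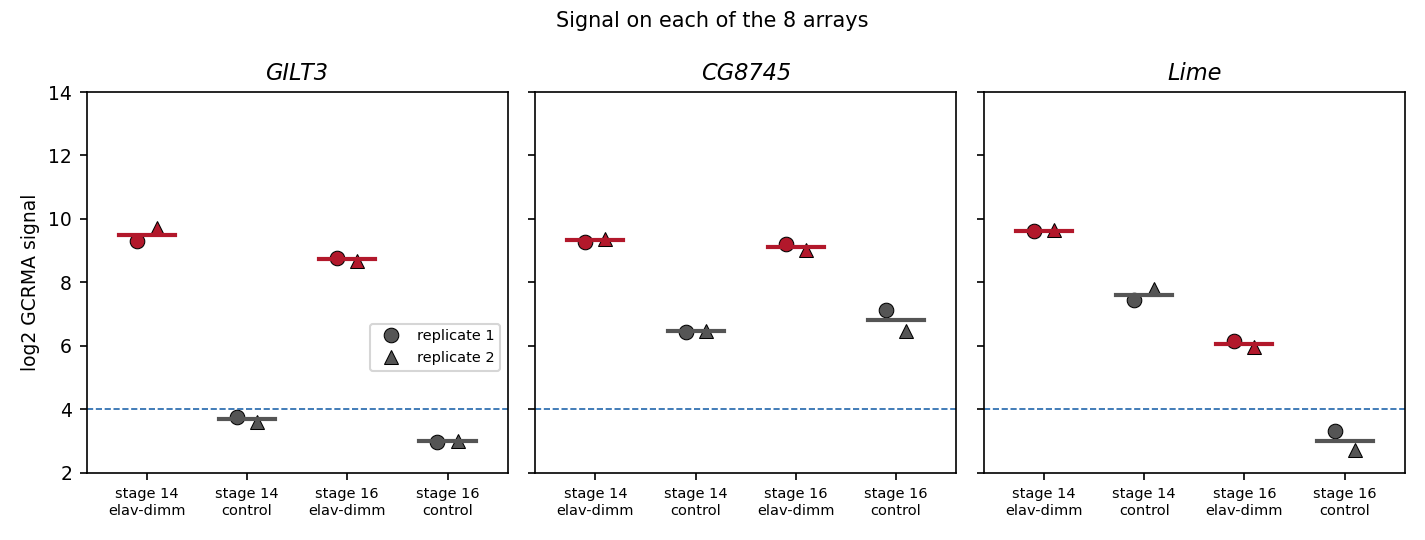
Log2 GCRMA signal (vertical axis) of GILT3, CG8745 and Lime on each array, by stage and genotype. Circles are replicate 1, triangles replicate 2, bars the means of 2 arrays, and the dashed line marks 4. The elav-dimm arrays lie above the control arrays of their stage in each panel, GILT3 controls lie under the line at both stages, and Lime is lower at stage 16 than at stage 14 in both genotypes.

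In 560 of the 8258 tested probe sets (6.78%), the 3 genes and 557 others, both elav-dimm arrays lay above both control arrays at each stage. The rule used this contrast, so nothing is read from that share. Ordered by the smaller of their differences at the stages, 12 probe sets of 11 genes reached the level of Lime (2.02). Those above it were, from the top, Hrb87F, GILT3, Rnf11, dimm, a further Rnf11 probe set, CG13248, kek5, CG8745, mael, eIF4E3 and CG7785. With values under 4 set to 4 these 12 probe sets still reached the level of Lime, but GILT3 (4.72) stood below the first Rnf11 probe set (4.89), and dimm was at 2.89. The next probe sets outside were those of CG4577 (1.42), pst (1.41) and Gnmt (1.32), and with values under 4 set to 4 CG4577 was at 0 and Gnmt at 0.51.

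The signals of the 3 genes were close between the stage 16 elav-dimm arrays, on which the dimm signal was uneven. The dimm probe set differed by 2.75 between those arrays, with replicate 2 the higher. Replicate 1 also had the larger 3′ to 5′ gap of eIF-4a (6.22, against 3.54 on replicate 2). Whether the dimm gap reflects transgene level or this difference between the arrays was not tested. The same arrays differed by 0.12 for GILT3, by 0.17 for CG8745 and by 0.20 for Lime, in each case with replicate 1 the higher. Without the stage 16 replicate 1 arrays of both genotypes, the stage 16 difference was 5.65 for GILT3, 2.55 for CG8745 and 3.24 for Lime, each from 1 array against 1. The endogenous elav gene, a marker of neurons, read 12.23 and 12.21 in elav-dimm embryos at stage 14, against 12.23 and 12.21 in control embryos. At stage 16 elav read 11.56 and 11.67 in elav-dimm embryos, against 11.51 and 11.63 in control embryos. Other neuronal markers lay further apart. Rbp9 differed by -1.55 at stage 14 and -0.38 at stage 16, and the brightest cpo probe set by 0.42 and 0.78, while a further cpo probe set differed by 0.10 and 0.03.

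**Figure D2:**
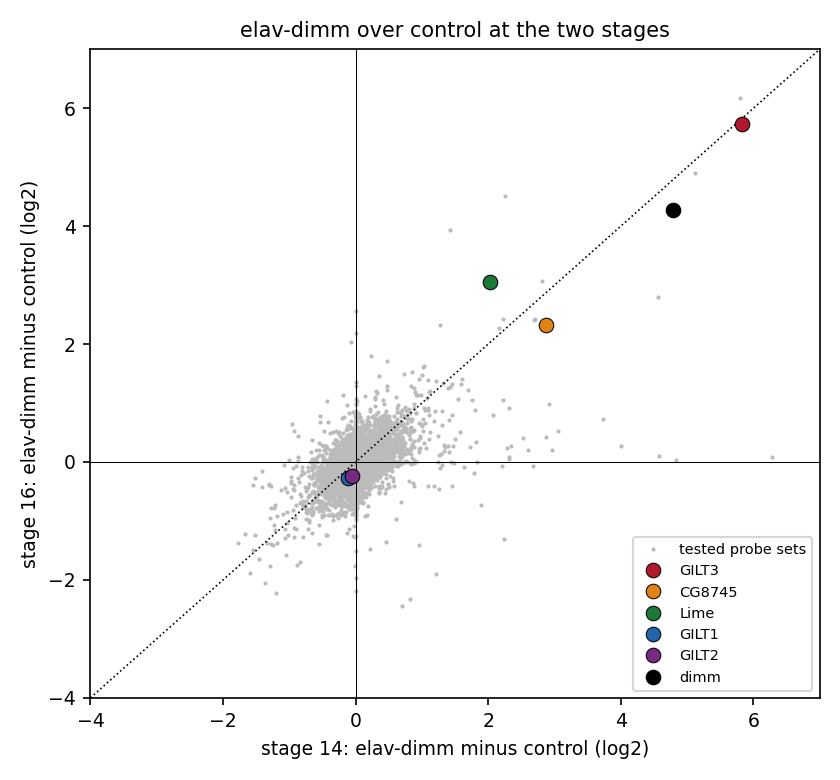
Log2 difference between elav-dimm and control embryos at stage 14 (horizontal axis) and at stage 16 (vertical axis) for the 8258 tested probe sets, in grey, with GILT3, CG8745, Lime, GILT1, GILT2 and dimm in colour. The dotted line marks equal differences. GILT3 lies at 5.82 and 5.73, near dimm, CG8745 and Lime lie on either side of the line between 2 and 4, and both paralogs lie close to 0.

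The paralogs of GILT3 did not move with it. GILT1, the best studied fly GILT gene, read 13.06 and 13.14 in elav-dimm embryos at stage 14, against 13.27 and 13.17 in control embryos. At stage 16 it read 12.32 and 12.48 in elav-dimm embryos, against 12.54 and 12.80 in control embryos. The elav-dimm arrays of GILT1 thus lay slightly below the control arrays at both stages, a pattern seen in 434 of 8258 probe sets (5.26%). Its average difference over the stages was -0.19 ± 0.09 (log2, SE, 4 arrays against 4) with a 95% interval from -0.41 to 0.03, and it did not pass the threshold of 0.05 (adjusted p = 0.503 in limma). GILT2, which lies next to GILT3 in the genome, read 11.62 and 11.49 in elav-dimm embryos at stage 14, against 11.65 and 11.58 in control embryos. At stage 16 it read 11.41 and 11.51 in elav-dimm embryos, against 11.58 and 11.83 in control embryos. The GILT2 arrays overlapped at stage 14 and not at stage 16, and the average difference was -0.15 ± 0.08 with a 95% interval from -0.36 to 0.06 (adjusted p = 0.615). The intervals of both paralogs, not adjusted for the number of probe sets, reach up to a 1.04-fold rise at most over the average of the stages. At stage 14 alone the upper limits were wider, at 1.144-fold for GILT1 and 1.175-fold for GILT2. At stage 16 they were 1.027-fold for GILT1 and 1.035-fold for GILT2. Across all tested probe sets, 124 passed in this comparison (1.5%), 80 higher and 44 lower in elav-dimm embryos. At single stages 28 probe sets passed at stage 14 (0.339%) and 30 at stage 16 (0.363%), and GILT1 (adjusted p = 1 and 0.712) and GILT2 (1 and 0.744) were not among them. The difference between the stage effects passed for 1 probe set (0.0121%), which was neither paralog.

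**Figure D3:**
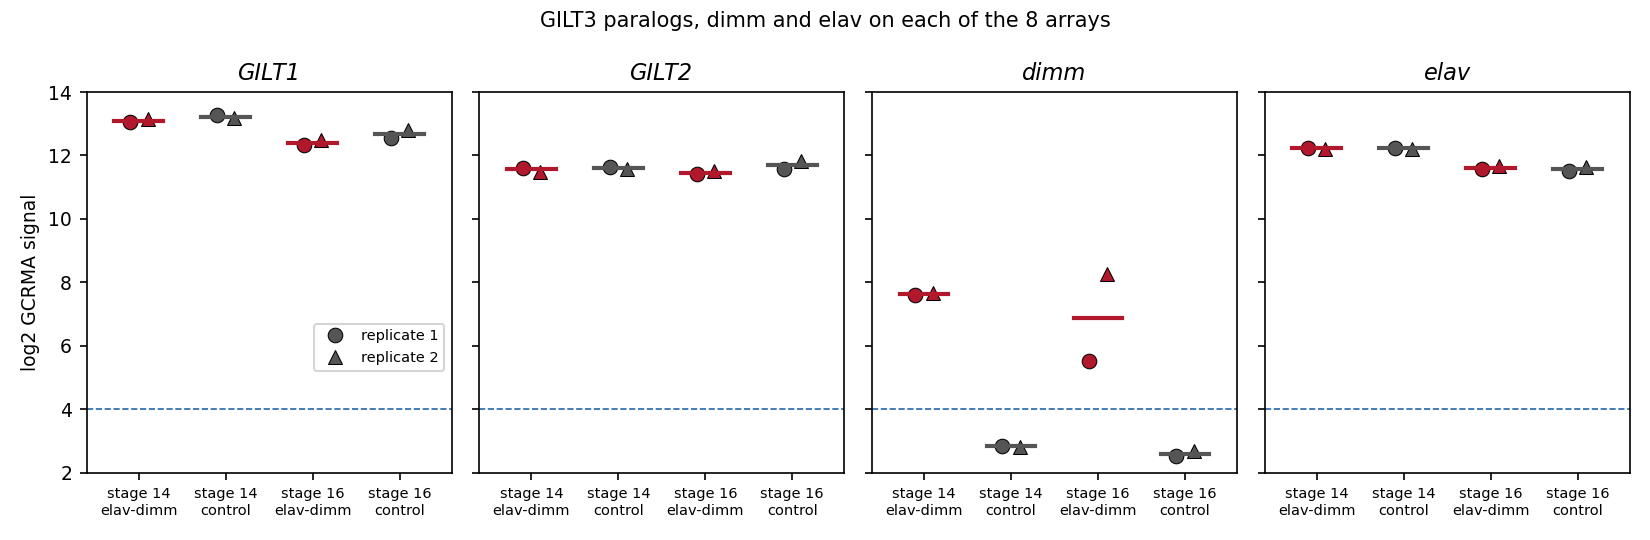
Log2 GCRMA signal (vertical axis) of GILT1, GILT2, dimm and elav on each array, by stage and genotype. Circles are replicate 1, triangles replicate 2, bars the means of 2 arrays, and the dashed line marks 4. GILT1, GILT2 and elav read nearly alike in both genotypes of a stage, and the stage 16 elav-dimm arrays differ by 2.75 for dimm.

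The change between the stages was not used to choose the genes and could be tested in each genotype. Each stage has its own lowest value, common to its 4 arrays, which is what a separate normalisation of each stage would leave, and levels are compared across stages with that limit. Over all tested probe sets the median change of stage 16 over stage 14 was -0.38 in control embryos and -0.44 in elav-dimm embryos. The change passed the threshold for 63.5% of them in elav-dimm embryos (42.8% lower at stage 16) and for 60.8% in control embryos (39% lower).

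Lime fell far more than the median. From stage 14 to stage 16 it fell by 3.58 ± 0.23 on the log2 scale in elav-dimm embryos (adjusted p = 8.13e-05 in limma) and fell by 4.60 ± 0.23 in control embryos (adjusted p = 3.33e-05; SE, 2 arrays against 2). Only 1.5% of tested probe sets fell as far in elav-dimm embryos and 0.315% in control embryos. Relative to the median of all tested probe sets, the changes were -3.14 in elav-dimm and -4.23 in control embryos. With values under 4 set to 4 they were -3.58 in elav-dimm and -3.61 in control embryos. The fall passed the threshold in both genotypes in every alternative that tested the stage change. The alternative that averaged the arrays of a group did not test it.

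GILT3 was lower at stage 16 in elav-dimm embryos by a log2 change of -0.78 ± 0.16 (adjusted p = 0.00777). In control embryos all 4 values lay under 4, and GILT3 was tested there only because its elav-dimm arrays passed the filter. The fitted control change was -0.69 ± 0.16 (adjusted p = 0.0133), and with values under 4 set to 4 it was 0 (adjusted p = 1), so no control change is read from it. Relative to the median of all tested probe sets they were -0.34 in elav-dimm and -0.31 in control embryos. With each array centred on the median of its tested probe sets they were -0.48 in elav-dimm embryos (adjusted p = 0.0518) and -0.47 in control embryos (adjusted p = 0.0536). The control change also missed the threshold without stage 14 control replicate 1 (adjusted p = 0.0805) and without the stage 16 replicate 1 arrays (adjusted p = 0.0793). CG8745 differed between the stages by -0.21 ± 0.22 in elav-dimm embryos (adjusted p = 0.432) and by 0.35 ± 0.22 in control embryos (adjusted p = 0.208). Without stage 16 control replicate 2 the control change of CG8745 was 0.67 and passed (adjusted p = 0.00831). Without the stage 16 replicate 1 arrays the CG8745 change was -0.29 in elav-dimm embryos, against 0.03 in control embryos, from 1 stage 16 array each. Centring each array on the median of its tested probe sets reversed the sign of the elav-dimm change of CG8745. GILT1 was lower at stage 16 by -0.71 ± 0.12 in elav-dimm and -0.55 ± 0.12 in control embryos (adjusted p = 0.00421 and 0.0115), and GILT2 differed by -0.09 in elav-dimm and 0.09 in control embryos (adjusted p = 0.51 and 0.521).

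**Figure D4:**
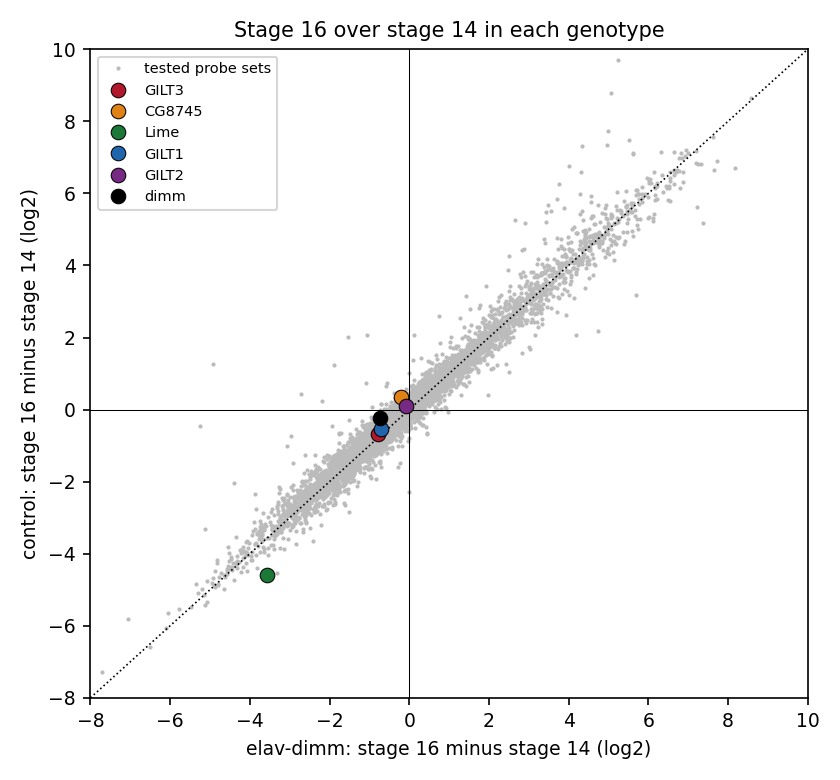
Log2 change of stage 16 over stage 14 in elav-dimm embryos (horizontal axis) and in control embryos (vertical axis) for the 8258 tested probe sets, in grey, with GILT3, CG8745, Lime, GILT1, GILT2 and dimm in colour. The dotted line marks equal changes. Lime lies at -3.58 and -4.60, while GILT3, CG8745 and the paralogs lie near the centre of the cloud.

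The 3 genes lie on different chromosome arms, GILT3 on 3R, CG8745 on 3L and Lime on 2R. Among the 5 genes on each side of each, 30 in all, 23 had a probe set naming 1 gene and 13 were bright enough to test. The neighbours did not share the rise: their average differences ran from -1.09 to 0.32 with a median of -0.09, beside a median of 0.00 over all tested probe sets. None was higher, and 1 was lower, against 0.533% lower over all tested probe sets. That gene was SPE, the fifth gene from GILT3, which encodes the protease that activates the Toll ligand Spätzle. SPE averaged 8.09 in elav-dimm embryos and 9.15 in control embryos at stage 14, and 8.81 in elav-dimm embryos and 9.94 in control embryos at stage 16 (n = 2 each). Its average difference was -1.09 ± 0.15 (adjusted p = 0.0439), with adjusted p from 0.0172 to 0.245 over the alternatives. Without the stage 16 replicate 1 arrays SPE differed by -1.19, Rgl by -0.28 and Sec24AB by -0.25. That left 1 stage 16 array per genotype. With any single array left out other than stage 16 elav-dimm replicate 1 no neighbour passed. The gene just before GILT3, CG31145, differed by 0.32 ± 0.27 (adjusted p = 0.835), and eIF3d1, a translation initiation factor gene beyond GILT2, by 0.26 ± 0.07 (adjusted p = 0.181). Beside CG8745, the haemocyte gene Hml on one side and dysc on the other were too dim to test. Beside Lime, CG12744 differed by -0.01 ± 0.05.

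**Figure D5:**
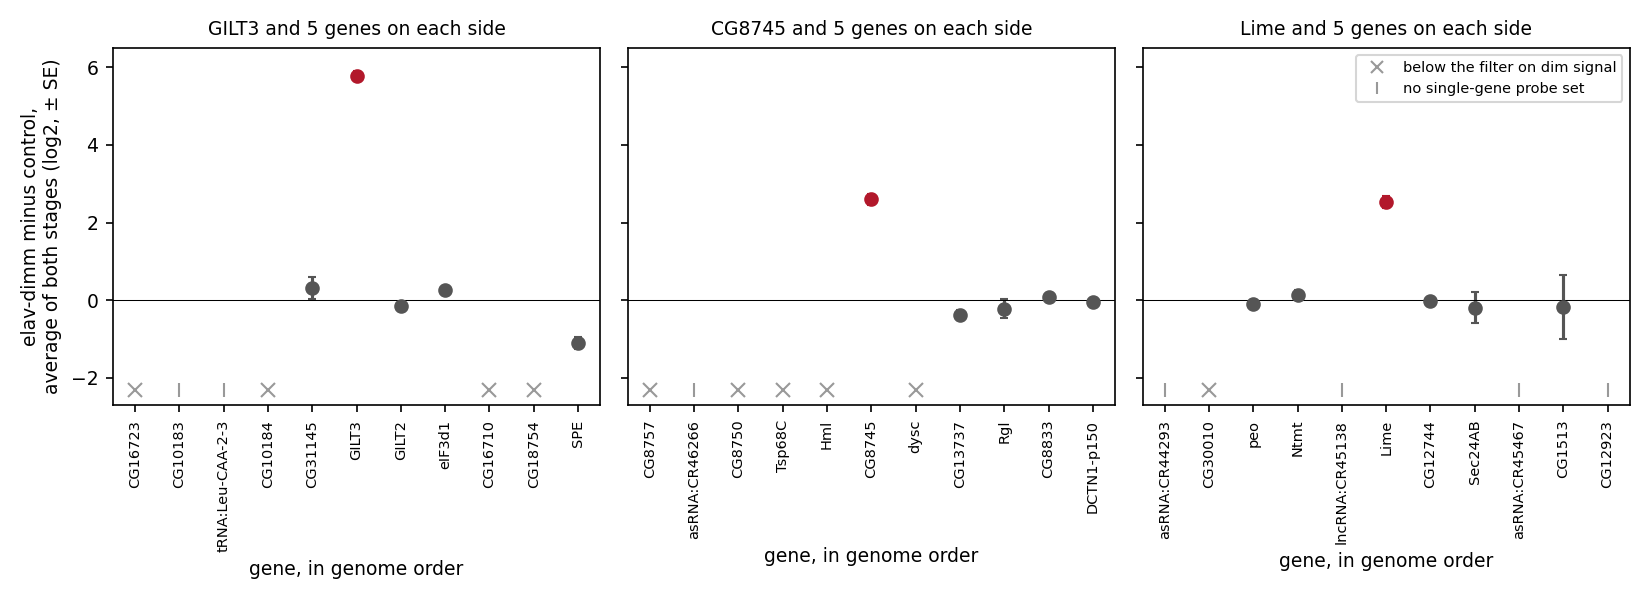
Difference between elav-dimm and control embryos, averaged over the stages (vertical axis, log2, bars are SE of the fit), for GILT3, CG8745 and Lime in red and the 5 genes on each side of each in grey, in genome order along the horizontal axis. Crosses mark genes below the filter on dim signal and ticks mark genes with no probe set naming them alone. The tested neighbours lie between -1.09 and 0.32, below the 3 chosen genes.

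The genes that work beside GILT3 were taken next, and the counts of this and the following lists stand beside 1.5% of all tested probe sets passing (0.969% higher, 0.533% lower). Of 14 tested genes of lysosomal hydrolases and membrane proteins, none passed in either direction, with differences from -0.80 to 0.32 and a median of 0.01. Of 12 tested genes of thiol-disulfide exchange, none passed (median 0.00), and the member with the smallest p was Trx2, a thioredoxin gene, at 0.38 ± 0.08 (adjusted p = 0.123). Of 15 tested genes of the Imd and Toll immune pathways, SPE was lower and none was higher (median -0.05).

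For CG8745 the lists cover its chemistry. Of 12 tested genes of ethanolamine phosphate and phospholipid head groups, none passed (median 0.00). The member with the smallest p was Sply, the sphingosine phosphate lyase that releases ethanolamine phosphate, at -0.50 ± 0.10 (adjusted p = 0.113). With same-numbered arrays of a stage fitted as a block Sply passed in limma (adjusted p = 0.0318), where 639 of 8258 probe sets passed. Without the stage 16 replicate 1 arrays Sply differed by -0.56, from 1 stage 16 array per genotype. Of 10 other tested genes listed as pyridoxal phosphate transaminases and relatives, none passed (median -0.02). Among them Oat, the ornithine aminotransferase gene, differed by 0.40 ± 0.08 (adjusted p = 0.0946). Without the stage 16 replicate 1 arrays Oat differed by 0.44 and Gabat, the GABA transaminase gene, by -0.48. With the block Oat passed in limma (adjusted p = 0.0293) and Gabat did not (adjusted p = 0.169).

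The carbohydrate genes were listed for the known metabolic role of Lime. None of 10 tested genes of carbohydrate storage and circulating sugar passed, with 3 positive and 7 negative differences and a median of -0.27. Tps1, the trehalose phosphate synthase gene, differed by 0.53 ± 0.09 (adjusted p = 0.075) and Pgm2a, a phosphoglucomutase family gene, by 0.62 ± 0.11 (adjusted p = 0.0829). Tret1-1, a trehalose transporter gene, differed by -0.51 ± 0.09 (adjusted p = 0.0867). In 2 of the 10 all elav-dimm arrays lay above all control arrays of their stage at both stages, and in 4 they lay below, beside 6.78% and 5.26% of all tested probe sets. Without the stage 16 replicate 1 arrays, Pgm2a was higher (adjusted p = 0.0356), and Treh, the trehalase gene (-0.56, adjusted p = 0.0291), Tret1-1 (adjusted p = 0.0381) and Glyp, the glycogen phosphorylase gene (-0.44, adjusted p = 0.0397), were lower. That setting called 816 of the 8258 probe sets, with the residual spread taken from the stage 14 arrays alone.

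Blood cells and fat body are the tissues in which Lime has been studied. None of 12 tested haemocyte markers passed (median 0.06), and the log2 of their summed signal was 14.96 to 14.97 in elav-dimm embryos and 14.90 to 14.97 in control embryos at stage 14. At stage 16 that sum was 15.30 to 15.44 in elav-dimm embryos and 15.18 to 15.38 in control embryos. The brightest members weigh most in it, and Fer2LCH averaged 13.88 in elav-dimm and 13.92 in control embryos at stage 14. The sum is thus no measure of blood cell content. Hml, a defining plasmatocyte marker, read 2.18 to 2.19 on all 8 arrays, at the bottom of the scale. None of 7 tested fat body markers passed (median 0.05), and their summed signal was 15.27 to 15.31 in elav-dimm embryos and 15.26 to 15.29 in control embryos at stage 14. At stage 16 it was 15.24 to 15.42 in elav-dimm embryos and 15.18 to 15.40 in control embryos. This sum too rests largely on its brightest member, apolpp, which averaged 14.76 in elav-dimm and 14.78 in control embryos at stage 14. Without the stage 16 replicate 1 arrays Lsd-1 differed by -0.60 and bmm by 0.17, from 1 stage 16 array per genotype. None of 6 pan-neuronal and none of 4 muscle markers passed. The pan-neuronal RNA-binding protein genes Rbp9 and cpo differed by -0.97 ± 0.18 (adjusted p = 0.0946) and 0.60 ± 0.16 (adjusted p = 0.215), and Mlc2, a myosin light chain gene, by -0.57 ± 0.22 (adjusted p = 0.396). With same-numbered arrays of a stage fitted as a block, where 639 of 8258 probe sets passed, all 3 passed in limma. Their adjusted p was 0.027 for Rbp9, 0.0168 for cpo and 0.0172 for Mlc2. Of 8 glial markers, repo was lower (-0.78 ± 0.08, adjusted p = 0.0256), and of 6 epidermis and cuticle markers, Cpr49Ac was higher (0.66 ± 0.09, adjusted p = 0.0441). Neither list moved as a whole. The glial markers had 3 positive and 5 negative differences (median -0.07), with Gs2 at 0.36. The epidermis and cuticle markers had 2 positive and 4 negative differences (median -0.12). Over the alternatives the adjusted p ran from 0.0189 to 0.186 for repo and from 0.0277 to 0.249 for Cpr49Ac. All lists together held 117 tested genes other than the 3 chosen ones, of which 1 was higher and 2 were lower (2.56%, beside 1.5% of all tested probe sets). With that block 16 list genes passed, beside 639 of the 8258 probe sets. Leaving arrays out moved the count both up and down. The part of these marker changes in the differences of GILT3, CG8745 and Lime was not tested.

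The genes whose profiles over the 8 arrays were most like each of the 3 differed from gene to gene. Likeness was the root mean square difference between profiles, each centred on its own mean, in log2 units over 8 arrays. The 3 genes were chosen on these same arrays, so genes with large rises come out near GILT3 and CG8745 by construction. The control values of GILT3 and dimm are also dim, and nothing is read from their likeness. For GILT3 the nearest were Hrb87F, an hnRNP gene, at 0.25, Rnf11 at 0.72 and dimm at 0.97, followed by mael (1.39) and kek5 (1.61). For CG8745 the nearest were eIF4E3, a cap-binding protein gene, at 0.47, kek5 at 0.56 and a probe set of Rnf11 at 0.58, followed by CG32073 (0.66) and Phm, the peptide amidating enzyme gene (0.68). None of the 5 genes nearest to Lime was among the 11 genes with the largest rises. They were link (0.79), the organic anion transporter gene Oatp58Dc (0.91), CG8097 (0.96), CG6236 (1.05) and CG8407 (1.05). These 5 genes had log2 changes of stage 16 over stage 14 from -3.97 to -2.59 in elav-dimm embryos and from -4.16 to -2.50 in control embryos. Their differences between elav-dimm and control embryos were 0.61 to 1.45 at stage 14 and 0.66 to 1.19 at stage 16, below the 2.02 and 3.05 of Lime. CG8097 and CG6236 averaged under 4 at stage 16 in both genotypes.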

How the data were processed

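Total RNA of whole embryos was hybridised to Affymetrix arrays. The deposited values are log2 signals that the authors summarised by GCRMA 2.22.0 under R 2.12.1 (limma is listed too), per the submitters' processing notes. No source here says whether both stages went through that step as 1 set. The platform annotation gave each probe set its gene, and the RefSeq gene table (Release 6 plus ISO1 MT) served only to update symbols and to order genes along chromosome arms. Of 18952 probe sets, 183 controls were dropped. The filter asked for a log2 value above 4 on 2 or more of the 8 arrays and kept 8258. A linear model with 1 mean for each of the 4 groups was fitted with limma 3.58.1 (R 4.3.3; 4 residual and 1.45 prior degrees of freedom). Each SE thus uses 1 spread per probe set shared by both stages. Over the tested probe sets, the difference between arrays of a group had an SD of 0.336 (elav-dimm) and 0.165 (control) at stage 14. At stage 16 that SD was 0.699 (elav-dimm) and 0.798 (control). P-values were adjusted by Benjamini-Hochberg over all 8258, with a threshold of 0.05. Where a listed gene had several probe sets of its own, the brightest was used. The fit was also run on simulated data with planted differences. Noise there was independent between arrays and equally wide in all groups, unlike in these data. That run is thus no check of the p-values given here.

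The 3 genes and all lists were chosen with earlier results of these data known. Named genes are the 3, GILT1, GILT2, dimm and elav, then 5 genes on each side, list members past the threshold, the 5 most alike genes, and genes rising at both stages at least as much as the lowest of the 3. List members that did not pass, or passed under 1 alternative, were named after their values were seen.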

Additional observations from a re-analysis of the deposited data

Results flagged for a closer look

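Among the genes named above, the difference between elav-dimm and control embryos pointed in opposite directions at the 2 stages, with no overlap of arrays, for CG12744 alone. This neighbour of Lime had differences of 0.05 at stage 14 and -0.08 at stage 16, so that the stage 16 difference minus the stage 14 difference was -0.13. Both differences are small beside the change of Lime, and with limma the difference between the stages did not pass.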

How the results depend on the processing

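The differences of GILT3, CG8745 and Lime kept their direction in every alternative. The genes were chosen for large differences on these same arrays, so no support is drawn from this. Setting values under 4 to 4 gave averages of 5.11 (GILT3) and 2.04 (Lime), with 5.50 and 4.72 for GILT3 at stages 14 and 16, 2.05 for Lime at stage 16 and a GILT3 stage change of 0 in controls. Leaving out 1 array at a time gave 5.62 to 6.03 for GILT3 at stage 14, 1.99 to 2.64 for CG8745 and 2.75 to 3.34 for Lime at stage 16. It gave stage changes of -0.776 to -0.595 (GILT3) and 0.0276 to 0.671 (CG8745) in controls, and -0.124 to 0.00467 for GILT2 at stage 14, reversed at 0.00467 without elav-dimm replicate 2. Centring on the tested median, added after seeing the data, gave stage changes of -0.475 (GILT3) and 0.0986 (CG8745, reversed) in elav-dimm embryos and -0.472 (GILT3) in controls. Without both stage 16 replicate 1 arrays they were -0.293 (CG8745, elav-dimm) and -0.667 (GILT3, control).

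Replicate numbers are not said to mark a shared batch. Deviations of same-numbered arrays correlated at 0.906 at stage 16, 0.155 at stage 14 and -0.0241 to 0.134 across stages. With a replicate block the GILT3 average was 5.78, that of CG8745 2.59 and that of Lime 2.53. The block called 639 probe sets on average over the stages (124 without it), 157 at stage 14 (28) and 219 at stage 16 (30). It called 16 list genes (3 without it). Of these, 4 were carbohydrate genes (Tps1, Pgm2a, Treh, Tret1-1), 3 pan-neuronal (Rbp9, cpo, Appl) and 1 muscle (Mlc2). A further 3 were glial, with repo and moody lower and Gs2 higher. The others were Sply, Oat, Trx2, SPE and Cpr49Ac. The block also called 2 neighbours (SPE and eIF3d1), and changed no call of the 3 genes or GILT1 and GILT2.

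Without both stage 16 replicate 1 arrays the calls were 816, 74 and 406, with 16 list genes and 3 neighbours. Averaging the arrays of a group called 3 probe sets on average over the stages, with 0 list genes and 0 neighbours. Without the filter on dim signal 44 were called on average and 4 at stage 16, with 0 list genes and 0 neighbours. Stage changes then passed for 14601 (control) and 14766 (elav-dimm), since probe sets at the lowest value of each stage differ by construction. Leaving out 1 array gave 4 to 66 calls on average, 3 to 25 at stage 14 and 2 to 13 at stage 16, with 0 to 2 list genes and 0 to 1 neighbours. The causes were not tested. Dim signal limits GILT3 in controls and Lime in stage 16 controls, and 2 arrays per group limit all precision.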
